A study of Homo sapiens with 2 samples.

Results

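The clustered histone genes were examined in C4-2B cells, a human castration-resistant prostate cancer (CRPC) cell line, after vehicle or (R)-9b, which inhibits the tyrosine kinase ACK1 (TNK2). Members were the protein-coding genes of the gene count table whose symbols begin with H1-, H2AC, H2BC, H3C or H4C followed by a digit, which gave 70 of 60671 genes. They comprised 10 H1, 16 H2A, 17 H2B, 13 H3 and 14 H4 genes. Of these, 55 lie on chromosome 6 and 11 on chromosome 1, in the histone clusters. The other 4 are H1 genes outside the clusters. The name "clustered" therefore holds for 66 of the 70.

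The study sequenced RNA from C4-2B cells to learn how ACK1 inhibition changes gene expression in prostate tumour cells. One group was vehicle-treated C4-2B cells, and the other was C4-2B cells given (R)-9b, for which the labels state 1 µM overnight, while the RNA sequencing methods give neither dose nor time. Each group was 1 library of 1 cell line, with no replicate, and the RNA was enriched with oligo-dT beads before sequencing. The labels call the cells breast cancer, whereas all 8 prostate markers examined were detected in both libraries (KLK3, encoding prostate-specific antigen, at 2200 CPM in vehicle and 5270 CPM with (R)-9b), while ESR1, the estrogen receptor of luminal breast cells, had 2 counts in each library and the breast marker SCGB2A2 had 0 in each. Another breast marker, PIP, which androgens also induce, had 124 counts in vehicle and 595 with (R)-9b. The other breast markers examined were TFF1 with 41 and 73 counts, SCGB1D2 with 34 and 8, and PGR with 10 and 2. The leukocyte marker PTPRC had 0 counts in both. Among stromal and endothelial markers, COL1A1 had 1114 and 2004 counts and VWF 769 and 411, while COL1A2 had 1 and 3 and DCN 0 and 2.

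Core histones H2A, H2B, H3 and H4 form the protein spool around which DNA is wrapped, and H1 linker histones bind the DNA where it enters and leaves the spool. Most genes in the clusters are replication-dependent. They lack introns, are transcribed together in S phase in nuclear bodies organised by NPAT, and their mRNAs end in a conserved stem-loop bound by SLBP in place of a poly-A tail. Some of them also make longer mRNAs that run past the stem-loop and are polyadenylated, chiefly outside S phase or in differentiated cells. H1 genes outside the clusters are not tied to replication in this way. Selection on poly-A therefore retains stem-loop histone mRNA poorly, and the counts below do not measure the total histone mRNA of these cells.

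The stem-loops of 5 members are shown because the ending of the mRNA decides whether oligo-dT beads can hold it. Capitals mark the stem-loop, 5′ to 3′ on the mRNA strand, with 5 bases on each side.
H2AC13: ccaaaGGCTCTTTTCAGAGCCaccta
H2BC21: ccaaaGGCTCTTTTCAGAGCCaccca
H2BC5: ccaaaGGCTCTTTTAAGAGCCacgca
H4C8: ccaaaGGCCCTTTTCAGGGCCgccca
H4C14: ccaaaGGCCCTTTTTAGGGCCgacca
They lie at chr6:27808642-27808667 (plus strand), chr1:149886183-149886208 (minus), chr6:26158582-26158607 (plus), chr6:26285126-26285151 (minus) and chr1:149833027-149833052 (plus), in the order printed, on GRCh38 with GENCODE 29 gene models. The annotated H2AC13 transcript ends 39 bases after its stem-loop, whereas that of H2BC21 runs on for 1729 bases. A stem-loop was found in the transcripts of 28 of 70 members, and in 28 of the 38 members whose models go beyond the coding part, against 0.114% of all 58676 genes. These 28 members carried 6 distinct stem-loops. The form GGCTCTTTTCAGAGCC was in 15 members, all of them H2A, H2B or H3, and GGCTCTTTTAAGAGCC was in 4, H2BC4, H2BC5, H2BC7 and H3C8. The 7 H4 members with a stem-loop held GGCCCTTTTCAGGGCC (H4C2, H4C5, H4C8 and H4C11) or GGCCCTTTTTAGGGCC (H4C9, H4C14 and H4C15). The 32 members whose models hold the coding part only could not show one.

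The vehicle library held 65207444 counts and the (R)-9b library 57653965, and the members took 0.111% and 0.107% of them. Levels are CPM (counts relative to the library total) scaled with the TMM method, and a log2 ratio is (R)-9b over vehicle, with an exact 95% interval that covers counting error only. With 1 library per group there is no replicate spread and no p-value, and an effect of (R)-9b and a difference between cultures cannot be told apart. Mitochondrially encoded transcripts took 1.49% of vehicle counts and 9.54% of (R)-9b counts, and scaling without them shifted each log2 ratio by 0.001. In bulk RNA, fewer cells in S phase and less histone mRNA per cell cannot be told apart. Ratios were read where a gene had 10 counts or more in the libraries together, and a gene was called higher or lower when its interval lay past a ratio of 1 and the ratio was at least 1.5-fold.

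The members did not move as a block. Their summed level had a log2 ratio of 0.0 (95% interval -0.01 to 0.02), but this sum joined lower linker histones with higher core histones. The 60 core histone genes together went from 481 CPM in vehicle to 644 CPM with (R)-9b, a log2 ratio of 0.42 (0.40 to 0.44). The 10 H1 genes summed to a log2 ratio of -0.44 (-0.47 to -0.42). H2B, H3 and H2A sums were higher with (R)-9b and the H4 sum was slightly lower.

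Among the 70 members, 8 had 0 counts in both libraries, 10 had 1 to 9 counts in total and 52 reached the minimum of 10. Of these 52, 8 were called higher (15.4%) and 5 were called lower (9.62%), and 39 were not called. Over all 23446 genes that reached the minimum, 14.9% were called higher and 13.4% lower, so the share of members called higher was near that of all genes. By the interval alone, 22 members lay above a ratio of 1 (42.3%, against 29.8% of all genes) and 10 lay below it (19.2%, against 31.1%). The median log2 ratio of the 52 members was 0.24, between -1.41 and 1.60, while the median of all genes was 0.0. The 17 members with 1000 counts or more held 1 of the 8 higher calls and 1 of the 5 lower calls, and the 35 with fewer counts held the rest. With halved counts, as if both mates of a read pair had been counted, 5 of the 8 higher and 4 of the 5 lower calls were kept. By the interval alone, H2AC17, H2AC18, H2BC6, H2BC7, H3C12, H4C2 and H4C5 no longer lay above 1 with halved counts. H2AC4 and H2BC15 no longer lay below it.

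**Figure D1:**
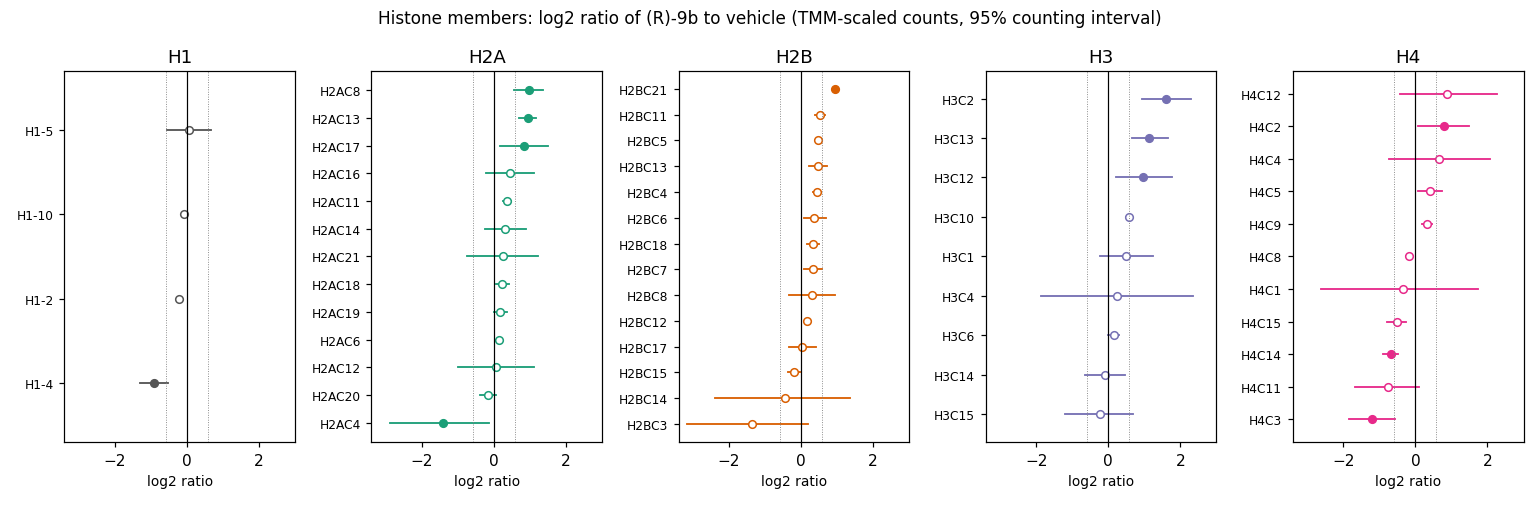
Log2 ratio of (R)-9b to vehicle for 51 histone members with at least 10 counts, 1 panel per histone type; points are the ratios of TMM-scaled counts, filled where called, bars are 95% counting intervals, and dotted lines mark 1.5-fold. All H3 members called were higher, and the H1 panel holds no member whose interval lies above 0.

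Linker histones were lower with (R)-9b, and 2 of the 5 H1 genes with enough counts were called lower and none higher. H1-4, a replication-dependent linker histone in the chromosome 6 cluster, had 183 and 83 counts, a log2 ratio of -0.90 (-1.29 to -0.52), and was called lower. H1-2, a cluster gene that makes both stem-loop and polyadenylated mRNA, had 9631 counts in vehicle and 7080 with (R)-9b, a log2 ratio of -0.21 (-0.25 to -0.16). H1-10, which encodes H1.X, had 9918 and 7975 counts and a log2 ratio of -0.08 (-0.12 to -0.03), with 22.9% of its exon bases overlapped by the antisense gene H1FX-AS1, whose reads cannot be told apart without strand. Both lay below 0 but inside 1.5-fold. H1-5, another replication-dependent linker histone, had 52 and 46 counts, and its ratio of 0.06 had an interval that spans 0. In all, 4 of the 5 H1 genes with enough counts had intervals below 0 and none had one above. The 6 H1 genes in the clusters together went from 148 CPM to 128 CPM, a log2 ratio of -0.21 (-0.26 to -0.17), of which H1-2 was 97.5% in vehicle. H1-1, H1-3, H1-6 and H1-8 had 1 to 6 counts in total, and H1-7 had 0. H1-6, H1-7 and H1-8 are germ-cell linker histones.

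H2A members together went from 80.6 CPM in vehicle to 95.8 CPM with (R)-9b, a log2 ratio of 0.25 (0.19 to 0.30). This sum leaves out H2AW, an H2A gene outside the naming rule, chosen after its values were seen. H2AW went from 64.6 CPM to 39.6 CPM. Of the 13 with enough counts, 3 were called higher and 1 lower, and 6 intervals lay above 0 and 1 below. H2AC8 had 84 and 139 counts, a log2 ratio of 0.96 (0.56 to 1.37). H2AC13, whose stem-loop is printed above, had 229 and 372 counts, a log2 ratio of 0.94 (0.70 to 1.18). Both are replication-dependent genes whose annotated transcripts end shortly after the stem-loop.

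H2AC17 had 34 and 51 counts and a log2 ratio of 0.82 (0.17 to 1.49), and 88.0% of its exon bases overlap H3C12, so part of their reads cannot be told apart. H2AC4, with 22 counts in vehicle and 7 with (R)-9b, was the lowest member at -1.41 (-2.88 to -0.14). Both calls rest on few counts, and neither was kept when counts were halved. By gene counts the highest H2A member was H2AC6, which makes both kinds of mRNA. It had 2429 and 2279 counts, a log2 ratio of 0.15 (0.06 to 0.23). By estimated transcript counts H2AC19, with 3558 in vehicle, stood above H2AC6 with 975. H2AC11 had 1052 and 1145 counts (0.36, 0.24 to 0.48). The near-identical genes H2AC18 and H2AC19 had 491 and 546 counts in vehicle and 489 and 521 with (R)-9b, log2 ratios of 0.23 and 0.17. H2AC20 had 351 and 266 counts, with an interval that spans 0 (-0.16, -0.40 to 0.07). The abundant H2A genes were thus slightly higher or level, and the larger ratios belonged to less counted genes. H2AC1 and H2AC7 had 2 counts each and H2AC15 had 0. Of the H2AC15 exon bases 100% overlap H2BC15, and of those of H2AC7 98.0% overlap AL031777.3, so gene counts may not assign their reads. H2AC15 had 56 and 30 estimated transcript counts.

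H2B gave the largest summed difference among the core histones, from 291 CPM to 428 CPM, a log2 ratio of 0.55 (0.53 to 0.58). Most of it came from H2BC21, an H2B gene of the chromosome 1 cluster that is known to make polyadenylated as well as stem-loop mRNA. It had 7352 counts in vehicle and 11886 with (R)-9b, or 110 CPM and 211 CPM, a log2 ratio of 0.93 (0.89 to 0.97). This was the only member over 1000 counts called higher and the only H2B gene called. H2BC21 (chr1:149884459-149886652, minus strand) was 37.9% of H2B counts in vehicle and 49.2% with (R)-9b. Without it the H2B sum was 0.26 (0.23 to 0.30) on the log2 scale.

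The other H2B genes were mostly above 0 by less than 1.5-fold. H2BC12 had 6158 counts in vehicle and 5819 with (R)-9b, a log2 ratio of 0.16 (0.10 to 0.21). H2BC5 had 1766 and 2074 counts (0.47, 0.38 to 0.56), and H2BC4 had 1261 and 1462 (0.45, 0.34 to 0.56). These 3, with H2BC21, are the H2B genes listed as making polyadenylated mRNA. H2BC11, not on that list, had 714 and 869 counts and a log2 ratio of 0.52 (0.38 to 0.67). Of 14 H2B genes with enough counts, 9 intervals lay above 0 and 1 below. The one below was H2BC15, with 723 and 533 counts (-0.20, -0.37 to -0.04), named after its values were seen. With halved counts the H2BC15 interval spanned 0 (-0.44 to 0.03). Of its exon bases 7.2% overlap H2AC15 and H2AC16. The lowest ratios were those of H2BC3, with 15 and 5 counts (-1.35, -3.16 to 0.19), and H2BC14, with 8 and 5 counts, and both intervals span 0. H2BC1, a testis histone, had 0 counts, and H2BC9 and H2BC10 had 2 and 5 in total.

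The promoter of H2BC21 is shown because this gene carried the H2B difference and lies head to head with H2AC20. It spans chr1:149886633-149886932 on the minus strand (RefSeq, GRCh38.p14), mostly before the annotated start. Capitals mark matches, on either strand, to TATAA (overlapping matches of both strands appear as 1 run), to CCAAT and to ATTTGCAT.
H2BC21: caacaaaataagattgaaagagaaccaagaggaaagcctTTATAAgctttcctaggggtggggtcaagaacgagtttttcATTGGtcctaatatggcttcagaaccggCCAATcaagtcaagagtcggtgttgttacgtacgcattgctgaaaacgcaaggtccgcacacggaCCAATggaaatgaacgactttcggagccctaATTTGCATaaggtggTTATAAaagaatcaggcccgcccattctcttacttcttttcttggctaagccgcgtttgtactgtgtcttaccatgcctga
TATAA is the core of the TATA box, CCAAT the box bound by NF-Y, and ATTTGCAT the octamer bound by OCT1 (POU2F1), a known activator of H2B genes. RefSeq promoters were matched for 64 members. TATAA was in 60 of them (93.8%, against 21.1% of 27305 promoters), CCAAT in 54 (84.4%, against 35.7%) and ATTTGCAT in 26 (40.6%, against 1.80%). The octamer was in 14 of 17 H2B and 11 of 15 H2A promoters, in 1 of 11 H3 promoters, and in none of 9 H1 and 12 H4 promoters. The H3 match is that of H3C4, whose window in the table is the same as that of H2AC7. These are matches to letters, not measured binding.

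Many H2A and H2B genes lie head to head, with starts under 500 bases apart, and share the DNA between them as promoter. By the outermost annotated starts there were 10 such H2A and H2B pairs and 1 pair of an H3 and an H2B gene, H3C12 and H2BC17. That H3C12 start is of a non-coding transcript with 0 estimated counts that overlaps H2AC17. The coding H3C12 transcript starts at 27890792. H2AC15 and H2BC15 were not paired, because an H2BC15 transcript starts at 27837760, on the other side of H2AC15. Of the 11 pairs, 9 had enough counts in both genes. In 2 pairs the intervals did not overlap. H2BC21 was at 0.93 while H2AC20, whose annotated start is 322 bases away, was at -0.16, and H2BC4 was at 0.45 (0.34 to 0.56) while H2AC6, 218 bases away, was at 0.15 (0.06 to 0.23). In the other 7 pairs the intervals overlapped. H2BC11 and H2AC11 were both above 0, at 0.52 and 0.36, as were H2BC13 and H2AC13, at 0.47 and 0.94. H2BC12 and H2AC12 differed more in counts than in ratio, with 6158 counts against 18 in vehicle.

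**Figure D2:**
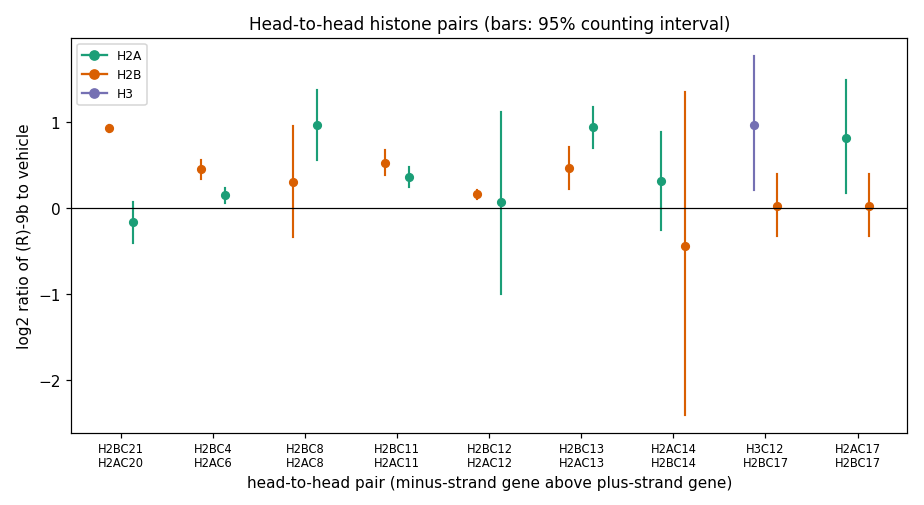
Log2 ratio of (R)-9b to vehicle for the 9 head-to-head pairs with enough counts, minus-strand gene to the left of its plus-strand neighbour; points are ratios of TMM-scaled counts and bars 95% counting intervals. The bars of H2BC21 (0.93) and H2AC20 (-0.16) stand apart, as do those of H2BC4 and H2AC6, and H2BC17 is drawn in 2 pairs.

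H3 genes together went from 40.9 CPM to 57.1 CPM, a log2 ratio of 0.48 (0.41 to 0.55), against 0.20 (0.096 to 0.30) with estimated transcript counts. By gene counts 3 of the 9 with enough counts were called higher and none lower. H3C2 gave the highest ratio of any member, from 28 counts in vehicle to 72 with (R)-9b (1.60, 0.95 to 2.29). H3C13, in the chromosome 1 cluster, had 54 and 101 counts (1.14, 0.65 to 1.65). H3C12 had 24 and 40 counts (0.97, 0.21 to 1.77) and lost its call when counts were halved. All 3 had about 100 counts or fewer per library.

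H3C10, which encodes the replication-dependent H3.1, carried 64.7% of H3 counts in vehicle and 68.8% with (R)-9b. It had 1762 and 2218 counts, a log2 ratio of 0.57 (0.48 to 0.66), just inside the 1.5-fold limit. H3C6, with 725 and 681 counts, was at 0.15. H3C14 and H3C15, which encode H3.2, had 64 and 25 counts in vehicle and 51 and 18 with (R)-9b, and their intervals span 0. No H3 interval lay below 0 by gene counts, while H3C14 was at -0.38 (-0.57 to -0.19) by estimated transcript counts, where H3C15 has no value. H3C3 and H3C8 had 0 counts in both libraries, and H3C7 and H3C11 had 1 and 7 in total.

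H4 was the core type with a lower sum, from 68.5 CPM in vehicle to 62.8 CPM with (R)-9b, a log2 ratio of -0.12 (-0.19 to -0.06). With estimated transcript counts it was -0.53 (-0.60 to -0.45). Its 11 genes with enough counts were divided, with 3 intervals above 0, 4 below and 4 that span 0. H4C3 had 81 counts in vehicle and 30 with (R)-9b, a log2 ratio of -1.20 (-1.85 to -0.57). H4C14 had 521 and 275 counts, a log2 ratio of -0.68 (-0.90 to -0.47). These were the 2 lower calls. H4C15, which shares nearly all its sequence with H4C14, had 321 and 190 counts (-0.52, -0.79 to -0.26).

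H4C8 held 57.0% of H4 gene counts in vehicle, but by estimated transcript counts H4C15 (2202) stood above it (868). By gene counts H4C8 had 2598 and 1946, a log2 ratio of -0.18 (-0.26 to -0.09). Without it the H4 sum was -0.05 (-0.15 to 0.04), and without H4C14 and H4C15 it was -0.03 (-0.10 to 0.04). On the other side, H4C9 had 807 and 856 counts (0.32) and H4C5 had 139 and 156 (0.40), and both intervals lay above 0. With halved counts that of H4C5 spanned 0 (-0.08 to 0.89). H4C2, with 31 and 45 counts, was called higher at 0.78 (0.08 to 1.48), but not with halved counts. H4C12, with 9 and 14 counts, and H4C11, with 36 and 18, had intervals that span 0. All 14 H4 genes encode the same or nearly the same protein, so the differences above are between genes, not between proteins. H4C6, H4C7 and H4C13 had 0 counts.

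Per kilobase of annotated exon, H2BC12 had the highest level in both libraries, at 243 CPM per kb in vehicle and 270 with (R)-9b, while H1-2 was at 225 in vehicle and H1-10 at 98.8 and 93.7. H2BC21 was at 50.3 CPM per kb in vehicle and 95.9 with (R)-9b, where it passed H1-10. H2BC5 (30.5 and 42.2), H2BC4 (22.7 and 31.0), H2AC6 (21.9 and 24.2) and H3C10 (21.4 and 31.8) were lower. The models of H2BC12 and H1-2 hold the coding part only, of 381 and 642 bases, so their levels per kilobase are higher than a longer transcript would give. The genes named here are, apart from H3C10, on the list of polyadenylated members described below. This ranking is by gene counts, where reads that match several copies may not be assigned. H2AC18 and H2AC19 together had 1037 gene counts in vehicle but 4111 estimated transcript counts, while H2BC12 had 6158 and 2585.

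**Figure D3:**
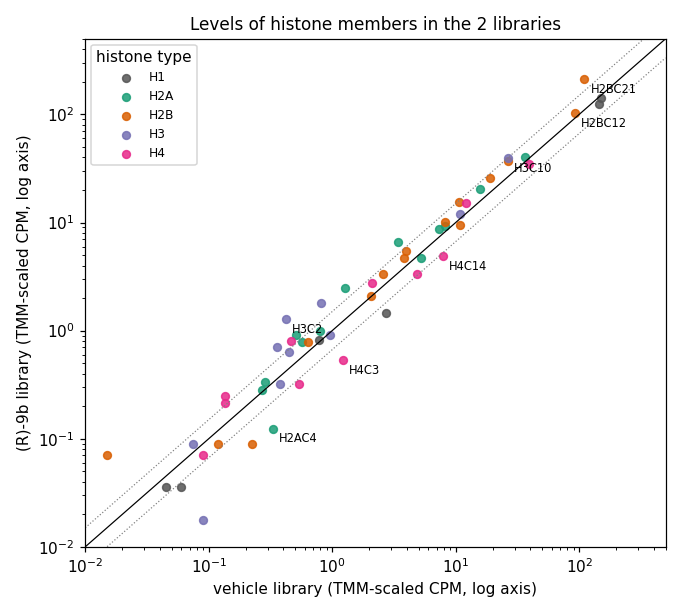
TMM-scaled CPM of histone members with counts in both libraries, vehicle on the horizontal and (R)-9b on the vertical log axis, coloured by type; the solid line is equality and dotted lines are 1.5-fold. Among the abundant genes drawn, H2BC21 lies above the upper dotted line, and the other points outside the lines have low levels.

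Polyadenylation was described first by a list of 8 members known to make polyadenylated mRNA, of which 6 lie in the clusters, H1-2, H2AC6, H2BC4, H2BC5, H2BC12 and H2BC21. The summed log2 ratio of the 8 was -0.05 (-0.06 to -0.03). That of the 6 cluster genes was 0.34 (0.31 to 0.36), from 430 CPM to 542 CPM, with 5 intervals above 0 and that of H1-2 below. The 62 members not listed went from 200 CPM to 229 CPM, a log2 ratio of 0.20 (0.16 to 0.23), with 7 called higher and 4 lower of 44 with enough counts. Their median was 0.27, against 0.15 for the 8 listed and 0.30 for the 6. The sums of the 6 and of the 62 were above 0 by gene counts, but with estimated transcript counts that of the unlisted members was 0.0042 (-0.034 to 0.0425). The 10 unlisted H2B genes with enough counts had a median of 0.31 and a sum of 0.26 (0.19 to 0.34), and the 12 unlisted H2A genes a median of 0.28 and a sum of 0.33 (0.26 to 0.40).

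The second description used the annotated transcript ends, a poly-A signal (AATAAA or its variant ATTAAA) in the last 50 bases or a stem-loop in the last 100. Among cluster members, 19 had a transcript with a poly-A signal end and no stem-loop in those last 100 bases. H2BC5, H2BC6, H2BC15, H3C6 and H4C8 are in this class although they also have a transcript that ends at the stem-loop. Of the 19, 17 had enough counts, of which 1 was called higher (H2BC21) and 1 lower (H4C14). The median was 0.33 and the sum 0.50 (0.47 to 0.52), or 0.22 (0.19 to 0.26) without H2BC21. The 7 members whose transcripts end at the stem-loop were H2AC8, H2AC13, H2AC18, H2AC19, H2BC13, H4C2 and H4C11. Among these, 3 were called higher and none lower, against 14.9% and 13.4% of all genes. Of the 3, H4C2 lost its call with halved counts. The median of the 7 was 0.47 and the sum 0.41 (0.31 to 0.50). H2AC18, H2AC19 and H4C11 also hold a poly-A signal in their last 50 bases, and these 3 summed to 1073 counts in vehicle and 1028 with (R)-9b (0.18, 0.05 to 0.30). The other 4, H2AC8, H2AC13, H2BC13 and H4C2, with a stem-loop alone, summed to 607 and 864 counts (0.75, 0.60 to 0.90), and the 3 calls were among them. The sums of the classes given so far were above 0. That of the stem-loop alone was higher than that of poly-A signal ends, with intervals that do not overlap. These 4 genes hold few counts, and this split was made after the values were seen. The 32 members with coding-part models only, which cannot be placed in either class, had a median of 0.20 over 20 genes. Their sum was -0.04 (-0.07 to -0.0). Of its 16688 counts in vehicle, H1-2 (-0.21) held 9631 and H2BC12 (0.16) held 6158. The 3 members that extend past the stem-loop without a poly-A signal summed to 0.32 (0.20 to 0.44). The 5 cluster members with neither ending summed to -0.68 (-0.97 to -0.39), with 1 called higher and 2 lower.

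Estimated transcript counts allowed different endings of the same gene to be set side by side. H4C8 has a stem-loop transcript ending 18 bases after the stem-loop, with 99.5 estimated counts in vehicle and 96.1 with (R)-9b (0.20, -0.22 to 0.62). Its longer transcripts with poly-A signals end 630 and 1655 bases after the same stem-loop. The shorter of them had 345 and 312 (0.11, -0.12 to 0.33), and the longer 424 and 261 (-0.45, -0.67 to -0.22). The lower estimate of H4C8 was thus that of its longest transcript, and its interval meets that of the stem-loop transcript only at the end. In H2BC5, the transcript with a poly-A signal alone (0.59, 0.38 to 0.79) and the one with both features (0.54, 0.28 to 0.81) had overlapping intervals. Over cluster members, 8 stem-loop transcripts summed to 338.5 and 470.0 estimated counts (0.72, 0.52 to 0.93). The 24 transcripts with a poly-A signal end summed to 10196.4 and 10341.0 (0.27, 0.23 to 0.31), and these intervals do not overlap. H2BC21 alone gave 2722 and 4361 of the poly-A signal sum, and a sum without it was not computed. H2AC8, H2AC13, H2BC13 and H4C2, whose split was made after the values were seen, are also in the stem-loop sum. The 4 transcripts with both features summed to 4413.0 and 4235.9 (0.19, 0.13 to 0.25). Such estimates split reads between transcripts that share most of their bases.

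Among RNAs that lack a poly-A tail and are no histones, 3 were called lower and none higher. Of 27 listed small structured RNAs, 16 had 0 counts in both libraries and 5 reached the minimum. RN7SL1, the RNA of the signal recognition particle, had 16772 counts in vehicle and 5499 with (R)-9b (-1.37, -1.42 to -1.33), and its copy RN7SL3 was at -1.42. SNORD3A (U3 RNA) had 28 and 10 counts (-1.25), and RNU6-1 and RNU6ATAC had intervals that span 0. All 13 mitochondrially encoded mRNAs were called higher, with a median of 2.76. The part of poly-A selection in the histone ratios was not tested.

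By location, the 11 members on chromosome 1 had a summed log2 ratio of 0.72 (0.69 to 0.76), to which H2BC21 contributed most counts, with a median of 0.17. On chromosome 6, the 21 members in the block from 27125897 to 27893843 summed to 0.29 (0.25 to 0.32), with a median of 0.34. The 34 members in the block from 25726132 to 26285638, where H1-2, H1-4, H4C3 and H4C8 lie, summed to 0.01 (-0.02 to 0.04), with a median of 0.30. Calls in both directions occurred on chromosome 1 and in the latter block, and the former held 3 higher calls and no lower one.

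Histone genes are copies of each other, and 20 members share a run of 150 bases, the read length, with another gene. H2AC18 shares 100% of its runs and H2AC19 96.4%, so their reads cannot be told apart by sequence. The pair had 1037 and 1010 counts, a log2 ratio of 0.20 (0.07 to 0.33). H4C14 and H4C15 together had 842 and 465 counts (-0.62, -0.79 to -0.45), so the lower level holds for the sum of the copies. H2AC13 and H2AC14 together had 282 and 428 counts (0.84, 0.62 to 1.06), H3C14 and H3C15 had 89 and 69 (-0.13, -0.60 to 0.34), and H4C11 and H4C12 had 45 and 32 (-0.25, -0.96 to 0.43). The opposite ratios of H4C11 and H4C12 are those of such copies. The 34 members with enough counts and no shared run held 4 higher and 4 lower calls, with a median of 0.27.

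Of 41 members with enough counts in both the gene and the transcript table, 37 had the same sign in both. For 29 the transcript estimate lay inside the interval of the gene count. H2BC21 was at 0.93 in both tables. H3C2, with 8 and 25 estimated counts, was at 1.89, and H4C3, with 28 and 12, at -0.97 with an interval that spans 0. H2AC20 differed most, from 68 to 22 estimated counts (-1.38, -2.14 to -0.66), against -0.16 by gene counts. Of the copies, H2AC18 went from 553 to 1063 estimated counts while H2AC19 went from 3558 to 2910.

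**Figure D4:**
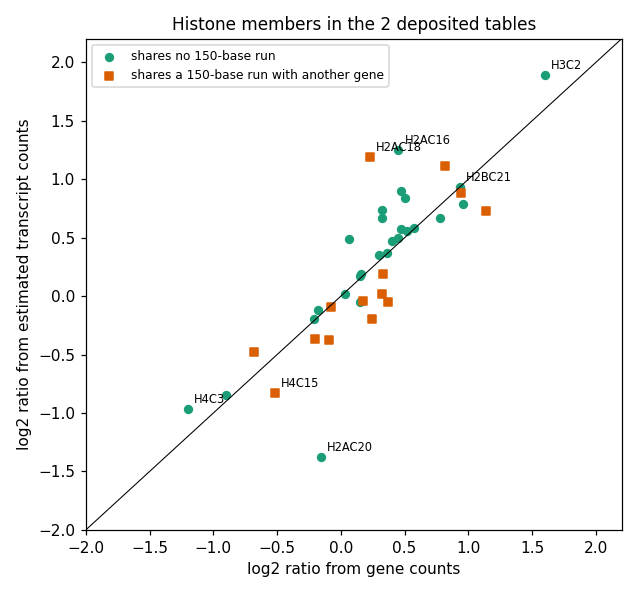
Log2 ratio of (R)-9b to vehicle from gene counts (horizontal) and from estimated transcript counts summed per gene (vertical); squares are members that share a run of 150 bases with another gene, and the line is equality. H2BC21 (0.93 in both) lies at the line, and H2AC18 and H2AC20 lie far from it.

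Genes around histone supply were read beside the members. Over all 23446 genes with enough counts, 14.9% were called higher and 13.4% lower, and 29.8% of intervals lay above 0 and 31.1% below. Of 36 G1/S and S-phase genes, 1 was called higher and 8 lower, with a median of -0.09, 11 intervals above 0 and 18 below. CCNE1, which encodes cyclin E1, the cyclin that activates NPAT at S-phase entry, had 641 counts in vehicle and 1362 with (R)-9b (1.33, 1.19 to 1.46). CDC25A, the phosphatase that activates its kinase, had 1040 and 1312 counts (0.57), and the helicase subunit MCM6 was at 0.30. The lowest were PRIM1, a primase subunit, with 1185 and 481 counts (-1.06), CDC45, of the active helicase, with 2725 and 1310 (-0.82), and the helicase loader CDT1 with 8492 and 4257 (-0.76). The nucleotide synthesis genes RRM2, TYMS and TK1 and the helicase loader CDC6 were also called lower. The summed core histones were higher in the library in which 8 of these 36 genes were called lower and 1 higher, and a link was not tested.

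Among 24 factors of histone mRNA transcription, end processing and decay, 1 was called higher and none lower, with a median of -0.02. SLBP, the stem-loop binding protein, had 4758 and 3994 counts, a log2 ratio of -0.01 (-0.08 to 0.05). The lowest were HINFP, an activator of H4 genes, at -0.46 (1179 and 728 counts), NPAT at -0.43 (1335 and 840) and LSM11, of the U7 particle that cuts histone mRNA, at -0.42 (392 and 248). The highest were TUT7, a uridylyl transferase of histone mRNA decay, at 0.59 (1687 and 2147 counts), the cleavage factor CPSF1 at 0.48 (6098 and 7230) and LSM10, the partner of LSM11, at 0.46 (2846 and 3315). The 2 U7-specific proteins LSM10 and LSM11 thus differed in opposite directions.

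Replication-independent histone variants gave no call among 10, with a median of -0.18, 1 interval above 0 and 6 below. H2AZ1 was the one above, with 18047 and 20653 counts (0.43, 0.40 to 0.46), while MACROH2A1 was at 0.02 and H2AX and H3-3A were both at -0.03. CENPA, the histone H3 of centromeres, had 885 and 502 counts (-0.58), H3-5 had 634 and 379 (-0.50) and MACROH2A2 had 980 and 624 (-0.41). Of 20 histone chaperones, 1 was called higher and 1 lower, with a median of 0.03. TONSL, which binds newly made H4, had 3937 and 6169 counts (0.89, 0.83 to 0.94), and NAP1L1, a carrier of H2A and H2B, had 58679 and 27268 (-0.87, -0.89 to -0.85). NAP1L4 (0.28) and DAXX (0.25) followed TONSL, and ASF1A and RBBP4 (both -0.39) and SSRP1 (-0.35) followed NAP1L1.

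**Figure D5:**
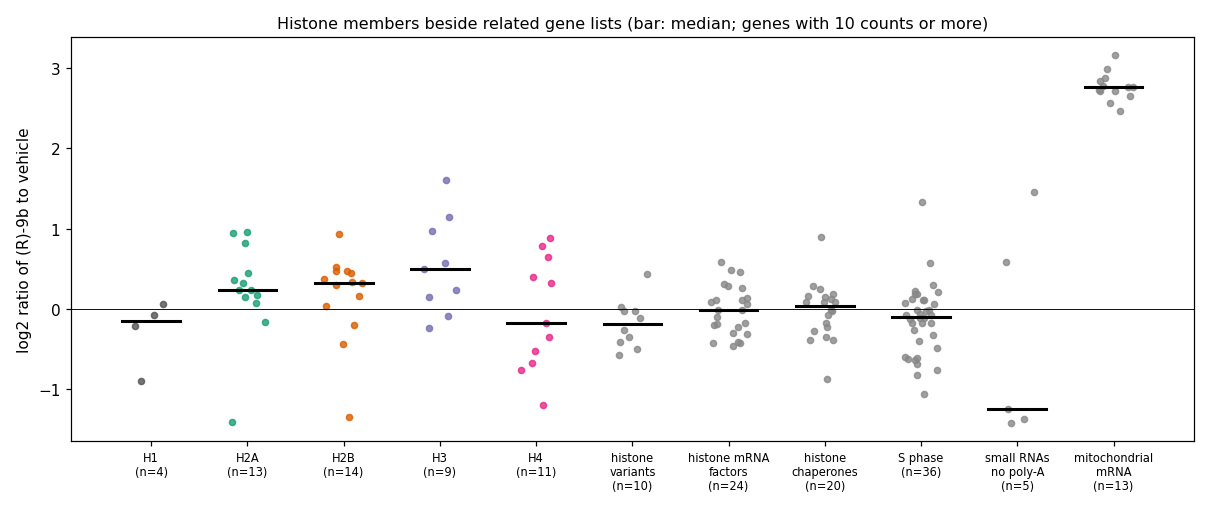
Log2 ratio of (R)-9b to vehicle for single genes with at least 10 counts, in the 5 histone types and in 6 related lists; points are genes and bars are medians. The H2A, H2B and H3 medians (0.24, 0.32 and 0.50) lie above 0, the H4 and variant medians (both -0.18) lie below, and the mitochondrial list stands at 2.76.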

How the data were processed

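RNA from C4-2B cells was poly-A selected and sequenced as paired ends, 1 library per condition. The authors deposited gene counts as whole numbers without normalization and a transcript table with estimated counts. The submitters' processing notes name STAR 2.5.1a, featureCounts 1.4.6-p5, Salmon 0.8.2 and hg38, while the paper's methods name a later STAR release; the strand setting is not given in the sources used here. Among genes with 1 to 20 counts, 72.2% in vehicle and 70.3% with (R)-9b had even counts, so mates may have been counted singly, and halved counts were tried. The deposited CPM and log2 tables were not used.

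After 200 repeated gene lines were dropped, counts were scaled by TMM (edgeR 4.0.16, R 4.3.3). Ratios were given with exact (Clopper-Pearson) 95% intervals (Python 3.11.15, scipy 1.17.1), which cover counting error only and treat reads as independent; a count of 0 allows up to 3 counts, or 0.0451 CPM in vehicle and 0.0531 CPM with (R)-9b. Estimated transcript counts were scaled likewise. Scripts were tested on simulated data. The alternatives were total-count, DESeq2 1.42.0, upper-quartile and non-mitochondrial scaling, minimum counts of 1 and 50, halved counts, estimated transcript counts, and call limits of 2-fold or none.

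Named in each type were the 5 members with the highest mean CPM, the 2 highest and 2 lowest ratios, every call and the listed polyadenylated members; other lists gave their 3 highest and 3 lowest genes, with SLBP, NPAT, CDC25A and CCNE1. Some genes that this rule covers are not reported here. Members and lists were chosen with earlier results of these data known. Positions and transcript sequences were from GENCODE 29, which held all 92 member transcripts of the deposited table, and promoters from RefSeq, 1 per symbol.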

Additional observations from a re-analysis of the deposited data

How the results depend on the processing

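No paired analysis was possible because each condition had 1 library, and for the same reason no replicate could be left out. Members called higher (8) numbered 5 with halved counts, 2 with a limit of 2-fold and 22 by the interval alone, and members called lower (5) numbered 2 and 10 under the last 2, by construction of these rules. Scaling by total counts, which lowers each log2 ratio by 0.06, gave sums of -0.505 for H1, 0.19 for H2A, 0.49 for H2B, -0.11 for members listed as polyadenylated and 0.14 for those not listed. Upper-quartile scaling gave -0.41 for H1, 0.59 for H2B, -0.0095 for listed members, with an interval that includes 0, and 0.23 for those not listed. DESeq2 size factors gave -0.0675 for listed members. Estimated transcript counts gave -0.36 for H1, 0.20 for H3, -0.53 for H4 and 0.0042 for members not listed, with an interval that includes 0, and the cause was not tested. Leaving out the members outside the clusters, chosen after seeing the data, gave -0.21 for H1 and reversed the listed members to 0.34. The other 54 values of the alternatives kept their direction. Halving cannot change a ratio, so the median and the sums under halved counts were the same by construction. The 54 values moved by less than the counting interval or, for counts of members, by no more than 1.5 times. For the median, the interval used ran from the median lower bound to the median upper bound of the members' counting intervals. This interval was wide and included 0 (-0.22 to 0.62). Depth limits the members with under 100 counts, whose intervals are wider than 1 log2 unit.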

Other observations

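Other histone genes, outside the naming rule of the members, were chosen after their values were seen, and the 2 largest differences among them were lower levels with (R)-9b. H2AW, an H2A gene, had 4300 counts in vehicle and 2235 with (R)-9b, a log2 ratio of -0.71 (95% interval -0.78 to -0.63). H2BU1, an H2B gene, had 966 and 223 counts, a log2 ratio of -1.88 (-2.09 to -1.67), lower than that of any of the 52 members with at least 10 counts. H4-16, an H4 gene, had 318 and 222 counts (-0.28, -0.53 to -0.03), while H2BS1 (241 and 237 counts) and H3-2 (16 and 18 counts) had intervals that span 0. Among histone pseudogenes, H2BC20P had 1150 and 900 counts (-0.12, -0.24 to 0.01) and H2BC19P had 358 and 251 (-0.27, -0.51 to -0.04).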
